A study of Mus musculus with 4 samples.

Results

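The genes described here encode the mitochondrial ribosomal proteins, the protein part of the ribosome that works inside mitochondria. Members were the protein-coding genes whose mouse symbol starts with Mrpl or Mrps followed by a digit, and 78 of the 55573 gene IDs in the count files met this rule, 49 with an Mrpl and 29 with an Mrps symbol. RNA was sequenced from the quadriceps, the large thigh muscle, of mice aged 7 weeks. There were 2 libraries from knockout mice (vdr-/-, strain B6.129S4-Vdrtm1Mbd/J), which lack the vitamin D receptor in every tissue, and 2 from wild-type (WT) C57BL/6J mice. Both groups were weaned at 21 days and fed regular chow. The labels do not say that the libraries of a group came from separate animals, so p-values cover only how far these libraries differ, which can be technical variation.

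Mitochondrial ribosomes translate the few messenger RNAs of the mitochondrial genome, which encode core subunits of the respiratory chain and of ATP synthase. Their ribosomal RNAs, mt-Rnr2 in the large subunit and mt-Rnr1 in the small subunit, are transcribed from mitochondrial DNA, whereas every ribosomal protein is encoded in the nucleus, made in the cytosol and imported. In mammals many of these proteins have bacterial counterparts and others are found only in mitochondria. Skeletal muscle depends on this translation for its oxidative capacity, and promoters of such genes are known to be bound by the factors NRF1, GABP (an ETS factor) and YY1. By the place of each protein in the known mammalian ribosome, 51 members belong to the large and 26 to the small subunit. Mrps18a and Mrps30 are counted with the large subunit in spite of their symbols. Mrps36 is no longer taken as a ribosomal protein and is known as a part of the 2-oxoglutarate dehydrogenase complex, so it was kept as a member by symbol and placed in neither subunit.

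Knockout libraries held 21.34 M and 11.21 M counts in total, against 10.79 M and 13.03 M in WT libraries. The members held 34320 and 19165 counts in knockout replicates 1 and 2, and 16512 and 20154 counts in WT replicates 1 and 2. The 9 muscle fibre markers summed to 76560 and 76940 CPM (counts scaled to library size with TMM factors) in knockout libraries and 88150 and 82170 CPM in WT libraries, which fits the tissue label. The groups also differed in sex-linked genes. Xist, made in female cells, stood at 0 and 0.256 CPM in knockout libraries and at 183 and 217 CPM in WT libraries. The Y-linked Ddx3y stood at 75.8 and 63.0 CPM in knockout libraries and at 4.74 and 0 CPM in WT libraries, so genotype and sex cannot be told apart in these samples. The 11 fat-cell markers summed to 4575 and 4162 CPM in knockout libraries and to 1096 and 1319 CPM in WT libraries, 9 of them were called higher, and the 5 red-cell markers summed to 548.8 and 389.2 CPM in knockout libraries and 242.7 and 265.7 CPM in WT libraries, with 2 called higher. The part of either in the members' values was not tested. In whole muscle, fewer cells of a type and less RNA per cell cannot be told apart.

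All but 1 of the members were measurable, and none of the 77 tested was called between knockout and WT. A call means a quasi-likelihood test in edgeR whose adjusted p (Benjamini-Hochberg, over 13076 genes) fell below 0.05. Of all tested genes 2.03% met it, 1.61% being higher and 0.413% lower in knockout muscle. At an unadjusted p below 0.05, 4 members stood higher in the knockout and none lower, which is 5.19% of members against 14% of all tested genes (8.08% higher, 5.9% lower). DESeq2, run on the same genes, called 0 members as well and had 3 at an unadjusted p below 0.05. The members' adjusted p ran from 0.133 to 0.992.

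Log2 fold changes of knockout over WT ran from -0.30 to 0.54, with a median of 0.06 and a median standard error of 0.155, beside a median of -0.0007 over all tested genes. Of the 77 members, 47 had a positive and 30 a negative log2 fold change, where 49.9% of all tested genes had a positive one. The 95% interval lay within a 1.5-fold change both ways for 58 members and within a 2-fold change for all 77 tested. Across all tested members the intervals spanned 0.611-fold (Mrps6) to 1.925-fold (Mrpl46). Within 1.5-fold both ways lay 41.0% of all tested genes, and 54.2% of the 9045 genes whose mean level fell in the members' range of 3.73 to 99.2 CPM.

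**Figure D1:**
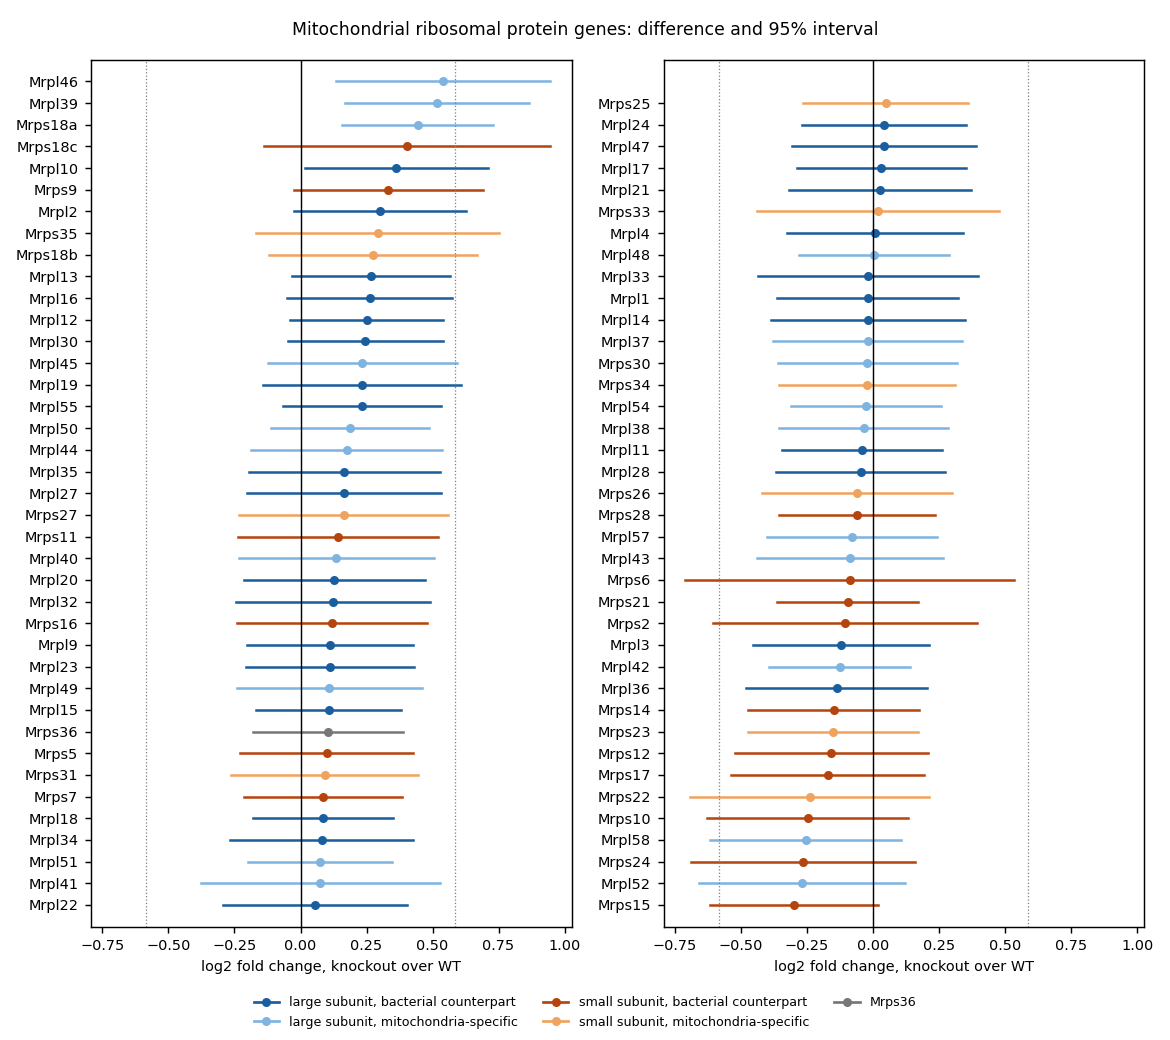
Log2 fold change of knockout over WT for the 77 tested members, ordered by size and coloured by subunit and kind. Points are edgeR estimates, lines are 95% intervals and dotted lines mark a 1.5-fold change; the intervals of Mrpl46, Mrpl39, Mrps18a and Mrpl10 alone exclude 0 before adjustment.

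The libraries of the groups did not overlap for 26 members (33.8%), against 44.7% of all tested genes. Both knockout libraries lay above both WT libraries for 20 of them (23% of all tested genes) and below for 6 (21.7% of all tested genes). Members also differed between libraries of the same group. The median log2 ratio over members was 0.007 for knockout replicate 1 over replicate 2 and -0.02 for WT replicate 1 over replicate 2, with quartiles of -0.13 and 0.17 in the knockout and of -0.18 and 0.14 in WT. For the knockout mean over the WT mean the median was 0.05, with quartiles of -0.06 and 0.16. A mean of 2 libraries varies less than a single library, so these quartiles cannot be set against those within a group.

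The 4 members with the smallest p all encode proteins of the large subunit, to which 50 of the 77 tested members belong. Mrps18a, one of 3 mammalian relatives of bacterial S18 and grouped here with the mitochondria-specific proteins by its place (ENSMUSG00000023967, GRCm38 chromosome 17, 46110986 to 46128910), stood at 33.9 and 34.1 CPM in knockout libraries and at 24.0 and 25.98 CPM in WT libraries (log2 fold change 0.44 ± 0.13 SE, edgeR adjusted p = 0.133). Both knockout libraries were higher, and the gap between groups was wider than either gap within a group. Mrpl39, a mitochondria-specific protein (chromosome 16, 84717576 to 84735742), stood at 14.4 and 16.5 CPM in knockout libraries and at 10.9 and 10.6 CPM in WT libraries (0.52 ± 0.16, edgeR adjusted p = 0.148). Mrpl46, another mitochondria-specific protein (chromosome 7, 78775236 to 78783531), stood at 14.6 and 15.4 CPM in knockout libraries and at 8.62 and 11.9 CPM in WT libraries (0.54 ± 0.18, edgeR adjusted p = 0.203). Its WT libraries differed from each other, and leaving out WT replicate 1 gave a log2 fold change of 0.33, leaving out WT replicate 2 one of 0.80. Mrpl10, which anchors the stalk that recruits translation factors in bacterial ribosomes (chromosome 11, 97041560 to 97049213), stood at 14.7 and 17.0 CPM in knockout libraries and at 12.6 and 11.9 CPM in WT libraries (0.36 ± 0.16, edgeR adjusted p = 0.329). In each of the 4 both knockout libraries lay above both WT libraries, as for 20 of the 77 tested members and 23% of all tested genes. The 4 were picked by their p, which favours such a gap, and none passed the adjusted threshold.

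**Figure D2:**
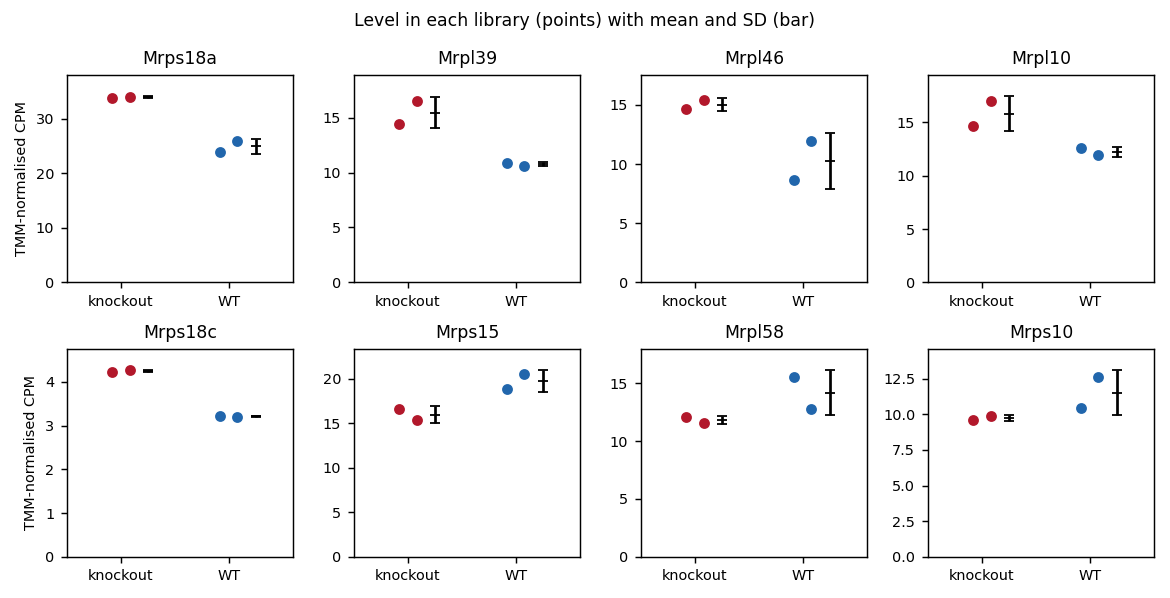
TMM-normalised CPM of 8 members in each library, with group mean and SD beside the points (n = 2 each); each axis starts at 0. Knockout libraries lie above WT for Mrps18a, Mrpl39, Mrpl46, Mrpl10 and Mrps18c, the members with the highest fold changes, and below for Mrps15, Mrpl58 and Mrps10. Mrpl52 and Mrps24, also among the lowest fold changes, are not shown and had overlapping groups. The lack of overlap in every panel thus follows from the choice of panels. Groups did not overlap for 33.8% of tested members and 44.7% of all tested genes. No panel shows a called gene.

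The promoters of these 4 genes are shown because the genes had the smallest p of the members, whatever motifs the windows held. Each run is the RefSeq window from 250 bases before to 50 bases after the annotated start (GRCm38.p6), read 5′ to 3′ on the gene's own strand: chr17:46110754-46111053 on the plus strand for Mrps18a, chr16:84735195-84735494 on the minus strand for Mrpl39, chr7:78783040-78783339 on the minus strand for Mrpl46 and chr11:97041332-97041631 on the plus strand for Mrpl10. Capitals mark matches on either strand. The ETS motif was searched as CCGGAAG, the YY1 motif as AAGATGGC, the Sp1 motif as GGGCGG and the E-box as CACGTG. The CCAAT box and the TATA box were searched as CCAAT and as TATAAA. The NRF1 core motif was searched as GCGCA and, after any base, GCGC. No matches overlap each other in these windows. For Mrpl39 and Mrpl46 the whole window lies inside the gene span given above, which comes from the GENCODE annotation. The RefSeq starts of these genes therefore lie downstream of the GENCODE ones.
Mrps18a: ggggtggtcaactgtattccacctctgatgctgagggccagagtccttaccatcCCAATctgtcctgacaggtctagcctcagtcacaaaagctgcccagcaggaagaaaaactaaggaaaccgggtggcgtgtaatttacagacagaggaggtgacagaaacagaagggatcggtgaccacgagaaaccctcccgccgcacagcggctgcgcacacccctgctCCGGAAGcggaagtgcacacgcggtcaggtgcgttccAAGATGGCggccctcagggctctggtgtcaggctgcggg
Mrpl39: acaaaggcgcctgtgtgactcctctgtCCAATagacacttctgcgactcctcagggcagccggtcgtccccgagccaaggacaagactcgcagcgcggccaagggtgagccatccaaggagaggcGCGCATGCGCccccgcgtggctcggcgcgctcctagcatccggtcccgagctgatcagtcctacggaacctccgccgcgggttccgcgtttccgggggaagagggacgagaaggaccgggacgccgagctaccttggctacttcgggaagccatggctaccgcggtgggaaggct
Mrpl46: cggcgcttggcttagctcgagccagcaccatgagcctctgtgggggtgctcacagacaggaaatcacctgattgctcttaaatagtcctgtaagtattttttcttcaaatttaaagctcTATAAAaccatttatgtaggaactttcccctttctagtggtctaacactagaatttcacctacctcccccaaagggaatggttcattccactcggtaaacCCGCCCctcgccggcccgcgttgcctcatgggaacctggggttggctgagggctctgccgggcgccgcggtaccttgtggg
Mrpl10: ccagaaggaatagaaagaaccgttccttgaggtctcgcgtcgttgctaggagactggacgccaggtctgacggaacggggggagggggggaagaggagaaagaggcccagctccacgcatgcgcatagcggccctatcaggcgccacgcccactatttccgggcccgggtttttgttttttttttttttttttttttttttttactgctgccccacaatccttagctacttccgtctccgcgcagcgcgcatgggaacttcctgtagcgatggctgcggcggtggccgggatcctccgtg
Mrps18a held an ETS, a YY1 and a CCAAT match, Mrpl39 an NRF1 and a CCAAT match, Mrpl46 an Sp1 and a TATAAA match, and Mrpl10 none of them. A match is an exact string of letters and does not show binding, and a window without a match can hold close variants.

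Promoter windows were found for 69 of the 78 members by symbol, and a gene was counted where any of its windows held a motif. The ETS letters occurred in 26 of the 69 (37.7%), in 19.8% of 9550 tested coding genes and in 9.93% of all 27025 genes with a window. The YY1 letters occurred in 12 members (17.4%), in 5.22% of tested coding genes and in 3.19% of all. The NRF1 core motif occurred in 13 members (18.8%), in 11.5% of tested coding genes and in 5.19% of all. GGGCGG occurred in 49.3% of members and 69.0% of tested coding genes, CCAAT in 39.1% and 42.6%, CACGTG in 7.25% and 11.8%, and TATAAA in 7.25% and 8.95%. The genes encoding these factors were not called either. Gabpa, the DNA-binding subunit of GABP, stood at 21.5 and 21.1 CPM in knockout libraries and at 25.3 and 22.4 CPM in WT libraries, Nrf1 at 10.9 and 8.61 CPM against 8.43 and 9.36 CPM in WT, and Yy1 at 23.4 and 24.5 CPM against 27.6 and 24.6 CPM in WT. Both knockout libraries lay below both WT libraries for Gabpa and Yy1, as for 21.7% of all tested genes, with a gap for Yy1 of 24.47 CPM in the knockout to 24.58 CPM in WT, and the groups overlapped for Nrf1.

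The Mrps18 relatives form a family of 3 whose proteins sit at different places, Mrps18a in the large and Mrps18b and Mrps18c in the small subunit. Mrps18b stood at 9.93 and 11.5 CPM in knockout libraries and at 8.24 and 9.36 CPM in WT libraries (log2 fold change 0.27 ± 0.18, edgeR adjusted p = 0.551). Mrps18c stood at 4.23 and 4.26 CPM in knockout libraries and at 3.22 and 3.20 CPM in WT libraries (0.40 ± 0.24, edgeR adjusted p = 0.516). Mrps18a was among the members with the smallest p. Both knockout libraries lay above both WT libraries for Mrps18b and Mrps18c, as for 23% of all tested genes, and the intervals of Mrps18b (0.921-fold to 1.588-fold) and Mrps18c (0.908-fold to 1.923-fold) included no change. Mrps18c rests on 89, 50, 34 and 41 counts in knockout replicates 1 and 2 and WT replicates 1 and 2, the smallest numbers among the members beside Mrps6.

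The other large-subunit members without overlap between groups differed less. Mrpl2, the counterpart of bacterial L2 near the catalytic centre, stood at 38.3 and 33.8 CPM in knockout libraries and at 26.1 and 32.4 CPM in WT libraries (log2 fold change 0.30 ± 0.15, edgeR adjusted p = 0.408). Mrpl12, the stalk protein that Mrpl10 anchors, stood at 40.6 and 43.3 CPM in knockout libraries and at 37.7 and 32.8 CPM in WT libraries (0.25 ± 0.13, edgeR adjusted p = 0.446). The groups did not overlap for either gene, as for 23% of all tested genes in this direction. Mrpl42, the member with the most CPM, stood at 90.5 and 99.2 CPM in knockout libraries and at 103 and 104 CPM in WT libraries (-0.13 ± 0.12, edgeR adjusted p = 0.719). Of the small subunit, Mrps9 stood at 15.3 and 13.0 CPM in knockout libraries and at 11.6 and 11 CPM in WT libraries (0.33 ± 0.16, edgeR adjusted p = 0.407).

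The 5 members with the lowest fold changes came from both subunits. Mrps15, the counterpart of bacterial S15 (chromosome 4, 126046925 to 126055532), stood at 16.6 and 15.3 CPM in knockout libraries and at 18.9 and 20.6 CPM in WT libraries (log2 fold change -0.30 ± 0.14, edgeR adjusted p = 0.395). Mrps24, the counterpart of bacterial S3, stood at 11.8 and 12.5 CPM in knockout libraries and at 11.9 and 17.2 CPM in WT libraries (-0.27 ± 0.19). Its WT replicate 2 stood alone, and without it the log2 fold change was 0.03. Mrps10, the counterpart of bacterial S10, stood at 9.60 and 9.89 CPM in knockout libraries and at 10.4 and 12.6 CPM in WT libraries (-0.25 ± 0.17). Of the large subunit, Mrpl52 stood at 12.2 and 15.7 CPM in knockout libraries and at 18.3 and 15.1 CPM in WT libraries (-0.27 ± 0.18). Mrpl58, a peptidyl-tRNA hydrolase that frees stalled ribosomes and is built into the large subunit, stood at 12.1 and 11.6 CPM in knockout libraries and at 15.5 and 12.8 CPM in WT libraries (-0.25 ± 0.16). Leaving out a library in turn gave log2 fold changes from -0.45 (without knockout replicate 2) to -0.09 (without knockout replicate 1) for Mrpl52. Mrpl58 had -0.11 when WT replicate 1 was left out and -0.39 when WT replicate 2 was. Mrps10 had -0.37 when WT replicate 1 was left out and -0.10 when WT replicate 2 was. The edgeR adjusted p of the last 4 lay between 0.548 and 0.604, and only Mrps24 and Mrpl52 had overlapping groups among the 5. These 5 were picked by fold change, which favours groups without overlap. Both knockout libraries lay below both WT libraries for 6 of the 77 tested members (7.79%) and for 21.7% of all tested genes.

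By subunit, the median log2 fold change was 0.08 over 50 large-subunit members (34 positive, 16 negative) and -0.04 over 26 small-subunit members (12 positive, 14 negative). The median was 0.10 for the 30 large-subunit proteins with a bacterial counterpart (23 positive) and 0.04 for the 20 tested mitochondria-specific ones (11 positive). It was -0.09 for the 16 small-subunit proteins with a bacterial counterpart (6 positive) and 0.03 for the 10 mitochondria-specific ones (6 positive). The small-subunit median was above 0 without WT replicate 1 (0.01) and without WT replicate 2 (0.06). Large-subunit members summed to 1174 and 1192 CPM in knockout libraries and to 1116 and 1108 CPM in WT libraries, and small-subunit members to 428.8 and 413.5 CPM in knockout libraries and 421.3 and 438.5 CPM in WT libraries. The groups did not overlap for the large subunit and overlapped for the small subunit.

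The ratio of large-subunit to small-subunit counts, which does not depend on scaling between libraries, was 2.74 and 2.88 in knockout libraries and 2.65 and 2.53 in WT libraries, or 2.81 ± 0.103 and 2.59 ± 0.0863 (SD, n = 2 each; exact permutation test, two-sided p = 0.333). With 2 libraries a group 0.333 is the smallest p possible. All members together summed to 1631 and 1634 CPM in knockout libraries and to 1565 and 1573 CPM in WT libraries, 1.04 times the WT mean (exact permutation test, two-sided p = 0.333). Relative to counts outside the mitochondrial genome, ribosomal RNA and the small nuclear RNA Rn7sk, they made up 0.330% and 0.330% in knockout libraries and 0.302% and 0.316% in WT libraries.

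**Figure D3:**
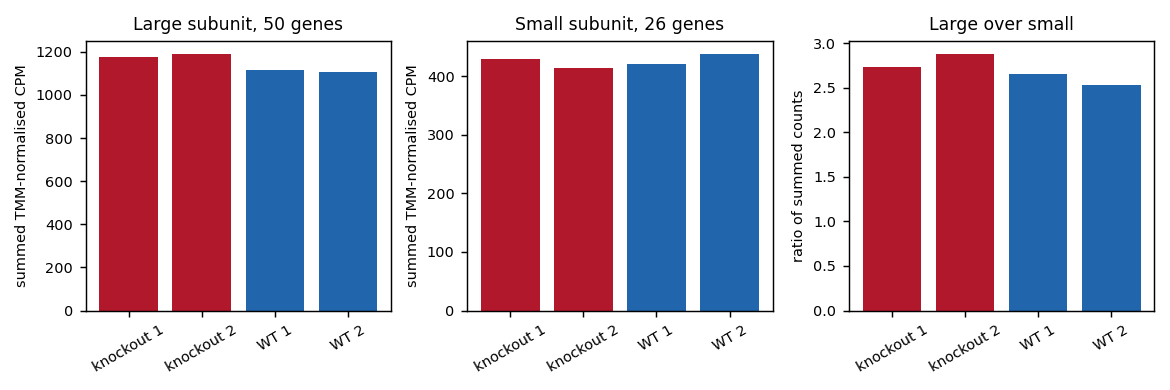
Summed TMM-normalised CPM of the large-subunit and the small-subunit members and the ratio of their summed counts, a bar per library, knockout left and WT right. The large-subunit sums are 1174 and 1192 CPM in knockout libraries and 1116 and 1108 CPM in WT libraries, the small-subunit sums overlap, and the ratio is higher in both knockout libraries.

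Levels per length differed far more between members than between genotypes. In TPM, which divides counts by merged exon length and scales over nuclear protein-coding genes, the tested members averaged 6.72 to 508 TPM, with a median of 43.1. Mrps21, the counterpart of bacterial S21, was highest at 509 and 466 TPM in knockout libraries and 520 and 536 TPM in WT libraries. Mrpl54 followed at 196 and 202 TPM in knockout libraries and 199 and 212 TPM in WT libraries, and Mrps28 at 189 and 196 TPM in knockout libraries and 208 and 199 TPM in WT libraries. These neighbours and Mrpl18 (195 ± 6.23 TPM, SD over 4 libraries) did not differ beyond their spread. Lowest were Mrps35 at 8.16 and 6.504 TPM in knockout libraries and 4.93 and 7.28 TPM in WT libraries, Mrpl33 at 7.15 and 6.68 TPM in knockout libraries and 6.12 and 8.10 TPM in WT libraries, and Mrps10 at 7.27 and 7.39 TPM in knockout libraries and 7.73 and 9.92 TPM in WT libraries. These 3 overlapped in level. With the length of the longest transcript in place of merged exons Mrps21 stood at 591 TPM, Mrpl54 at 213 TPM and Mrps28 at 152 TPM, and Mrpl33 at 14.4 TPM, so the order at both ends depends in part on the transcript models.

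**Figure D4:**
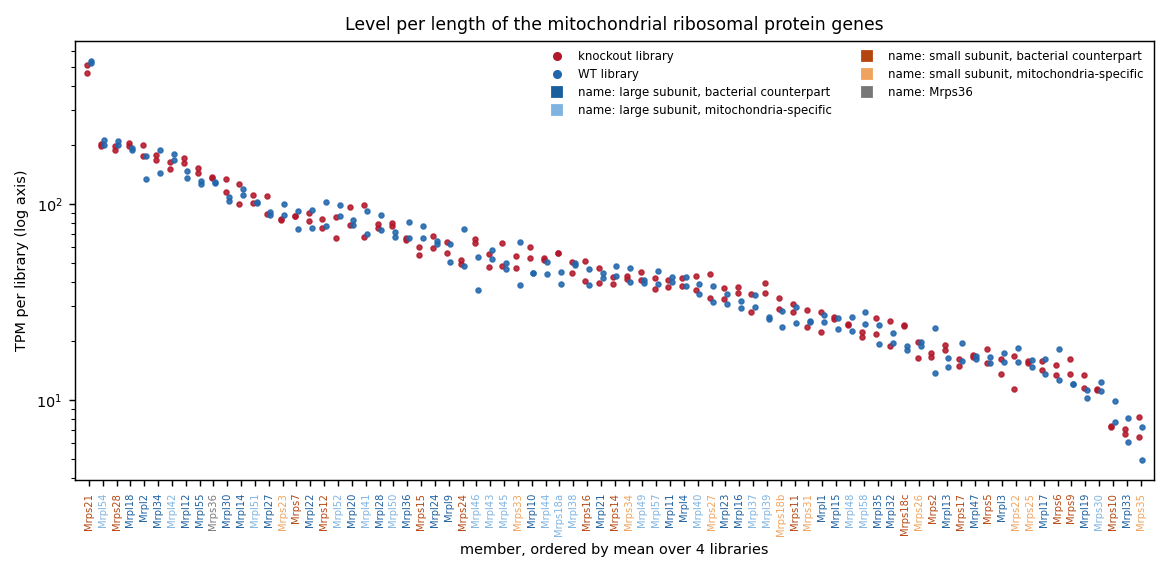
TPM of each tested member in the knockout libraries (red, left) and the WT libraries (blue, right) on a log axis, ordered by the mean over 4 libraries, with names coloured by subunit and kind. Levels run from 508 TPM for Mrps21 to 6.72 TPM for Mrps35, and the points of a member lie close together.

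The median level was 48.9 TPM for the large and 28.4 TPM for the small subunit. The cytosolic ribosomal proteins (72 Rpl and Rps genes) had a median of 496 TPM and 38 Nduf genes of respiratory complex I one of 402 TPM. None of the 70 tested cytosolic or 38 complex I genes was called in edgeR, against 2.03% of all tested genes. Of the 70, 5 had an unadjusted p below 0.05 (4 higher, 1 lower in knockout muscle). Of the 38, 3 had one (1 higher, 2 lower), and of all tested genes 14% did. The cytosolic and complex I genes had median log2 fold changes of 0.05 and 0.06.

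Mrpl53 was listed at 0 counts in all 4 libraries. Its locus (chromosome 6, 83109040 to 83109939) shares 88.0% of its exon bases with Gm42688, a longer coding gene annotated on the same strand, which had 7 and 5 counts in knockout libraries and 3 and 6 counts in WT libraries. The treatment of reads on shared exons is not stated, but of 712 genes lying wholly under exons of their own strand only 1 had a count. The 0 therefore does not show that Mrpl53 is silent. Among the tested members, Mrps34 shares 37.0% of its exon bases with Nme3 on its own strand, which was also listed at 0. Mrps18c shares 23.2% with Gm43511, which had 5 and 5 counts in knockout libraries and 2 and 3 counts in WT libraries. Mrps6 shares 19.9% with Gm49711, which was listed at 0. Mrps24 shares 15.4% with Urgcp, which had 547 and 294 counts in knockout libraries and 242 and 296 counts in WT libraries. On the opposite strand, Mrps25 shares 69.8% of its exon bases with Nr2c2, Mrps34 63.4% with Mapk8ip3, Mrpl19 36% with Gcfc2, Mrpl43 33.4% with Twnk and Mrps18b 30.5% with Gm16279. The counts behave as strand-specific, since 119 of 457 genes lying wholly under opposite-strand exons had a count, against 1 of 712 genes lying wholly under exons of their own strand. Of the 5 annotated pseudogenes with Mrpl or Mrps names, Mrpl23-ps1 had the most reads, 6 and 7 counts in knockout libraries and 6 and 1 counts in WT libraries.

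Many members lie head to head with another coding gene. For 26 of the 78 (33.3%) an opposite-strand coding gene starts within 1000 bases upstream or overlaps the start by up to 500 bases. The same held for 9.50% of all 21967 nuclear coding genes, tested here or not. The share among tested coding genes alone was not counted. Mrpl46 and Mrps11 form such a pair, with starts that overlap by 412 bases in the GENCODE annotation. The RefSeq window of Mrpl46 places its start further downstream, so this overlap depends on the annotation. Mrps11 stood at 10.9 and 10.1 CPM in knockout libraries and at 8.91 and 10.1 CPM in WT libraries (log2 fold change 0.14 ± 0.17, edgeR adjusted p = 0.792), so its groups overlapped while those of Mrpl46 did not. Mrps12, of the decoding centre, faces Sars2, the mitochondrial seryl-tRNA synthetase, across 172 bases. Mrps12 had a log2 fold change of -0.16 and Sars2 one of -0.07. Mrpl36 faces Ndufs6, a complex I subunit, and these had log2 fold changes of -0.14 and -0.16. The tested pairs numbered 22, of which 1, Mrpl46 with Mrps11, lies within the family. Of the 21 tested partners outside it, none was called, 1 had an unadjusted p below 0.05 (14% of all tested genes) and 14 had the sign of the member they face.

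The 5 subunits of the mitochondrial ribosome without an Mrpl or Mrps name were likewise measured, and none was called, against 2.03% of all tested genes. Gadd45gip1, a large-subunit protein, stood at 15.5 and 17.0 CPM in knockout libraries and at 20.4 and 20.1 CPM in WT libraries (-0.32 ± 0.14, edgeR adjusted p = 0.337). Dap3 (log2 fold change 0.11), Ptcd3 (0.07), Chchd1 (0.05) and Aurkaip1 (0.02), all of the small subunit, had overlapping groups. Mrps36 stood at 28.6 and 28.7 CPM in knockout libraries and at 27.3 and 25.9 CPM in WT libraries (0.11 ± 0.13, edgeR adjusted p = 0.793).

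Genes that build and serve the mitochondrial ribosome held no called member in any of 5 lists, against 2.03% of all tested genes. Of 26 tested assembly factors (median log2 fold change -0.02) none had an unadjusted p below 0.05, against 14% of all tested genes. The smallest p values belonged to Malsu1, which guards the large subunit during assembly, at 19.0 and 15.3 CPM in knockout libraries against 20 and 22.8 CPM in WT libraries (-0.32 ± 0.16), and to Mpv17l2 (0.35 ± 0.22). Of 16 translation factors and partners (median -0.01), the initiation factor Mtif3 stood at 7.61 and 8.10 CPM in knockout libraries and at 5.69 and 5.46 CPM in WT libraries (0.49 ± 0.19, edgeR adjusted p = 0.275), and Slirp, which stabilises mitochondrial messengers, had a log2 fold change of 0.16. Of 19 tRNA synthetases (median 0.06), Ears2 stood at 3.90 and 4.01 CPM in knockout libraries and at 5.69 and 5.46 CPM in WT libraries (-0.50 ± 0.22, edgeR adjusted p = 0.345), and Vars2 had a log2 fold change of 0.30. Lars2, chosen after its values were seen, stood at 21.8 and 35.7 CPM in knockout libraries and at 47.0 and 146 CPM in WT libraries, with WT replicate 2 far above the rest (edgeR adjusted p = 0.553).

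Of 11 genes of mitochondrial DNA transcription and replication (median -0.10), Ssbp1, the single-strand binding protein, had a log2 fold change of -0.28 and Polrmt, the mitochondrial RNA polymerase, one of -0.26. Of 10 regulators of mitochondrial biogenesis (median 0.02), Myc stood at 7.61 and 6.74 CPM in knockout libraries and at 4.93 and 4.99 CPM in WT libraries (0.54 ± 0.20, edgeR adjusted p = 0.255). Ppargc1a, the coactivator PGC-1 alpha, stood at 19.0 and 15.01 CPM in knockout libraries and at 19.3 and 16.8 CPM in WT libraries.

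**Figure D5:**
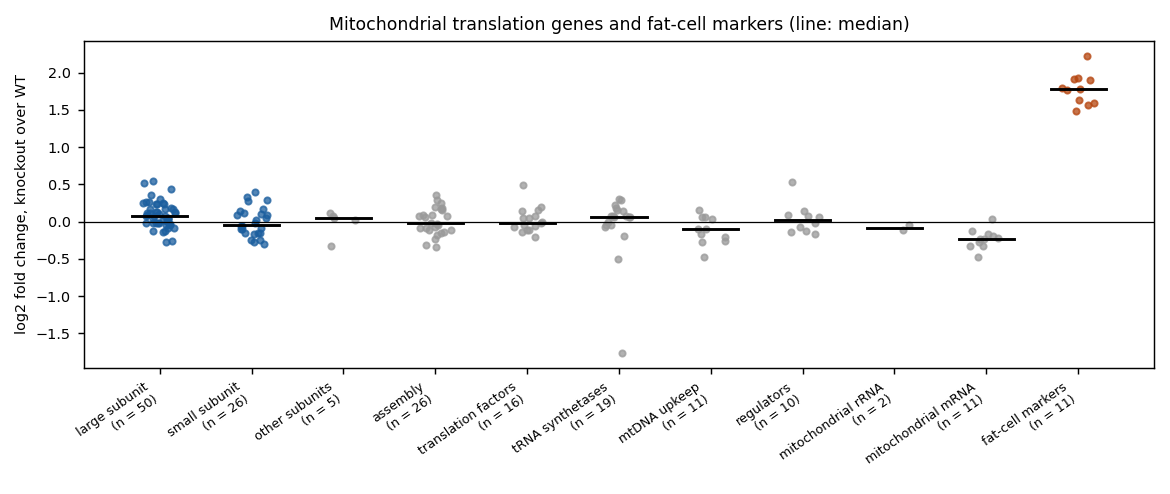
Log2 fold change of knockout over WT for each tested gene of the large and small subunit, of 8 lists of mitochondrial gene expression and of fat-cell markers, with the median as a line. The fat-cell markers stand at a median of 1.78, whereas the medians of the other sets lie between -0.23 and 0.08; the lowest point is Lars2.

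The RNA that these proteins bind and the messengers they translate were measured in the same libraries. mt-Rnr2 stood at 382900 and 329600 CPM in knockout libraries and at 357000 and 380300 CPM in WT libraries (log2 fold change -0.05 ± 0.17, edgeR adjusted p = 0.941). mt-Rnr1 stood at 76700 and 64310 CPM in knockout libraries and at 81110 and 70920 CPM in WT libraries (-0.11 ± 0.17, edgeR adjusted p = 0.845). The groups overlapped for both. Counts of the 2 ribosomal RNAs were 282 and 241 times those of all members in knockout libraries and 280 and 287 times in WT libraries, and knockout replicate 2 stood apart. None of 11 tested mitochondrial messengers was called, against 2.03% of all tested genes. Of the 11, 10 had a negative log2 fold change (6550 of all 13076 tested genes), with a median of -0.23. Both knockout libraries lay below both WT libraries for 7 of them (21.7% of all tested genes) and above for 0. The summed messengers overlapped between groups, at 24880 and 19980 CPM in knockout libraries and 23320 and 23490 CPM in WT libraries. mt-Nd6, the complex I subunit encoded on the other strand of mitochondrial DNA, stood at 56.0 and 54.8 CPM in knockout libraries and at 80.1 and 74.8 CPM in WT libraries (-0.48 ± 0.12, edgeR adjusted p = 0.079). mt-Nd2 stood at 801 and 739 CPM in knockout libraries and at 907 and 1032 CPM in WT libraries (-0.33 ± 0.13, edgeR adjusted p = 0.294).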

How the data were processed

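The deposited values are unnormalised counts of reads for each Ensembl gene ID, judging by the values themselves. The tools listed per the submitters' processing notes are Trimmomatic, STAR and DESeq2, and the build is GRCm38 (mm10). Versions, strand setting, annotation release and the handling of reads on several genes are not stated there. Of 55573 gene IDs, 55480 matched GENCODE M21 (GRCm38), from which symbols, coordinates and exon lengths were taken.

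Genes were kept by filterByExpr in edgeR 4.0.16 (minimum count 10, minimum total 15), scaled by TMM and compared with the quasi-likelihood F test (robust) on 13076 genes in R 4.3.3, the model holding genotype alone. The fit was tested on simulated counts. Standard errors and 95% intervals came from the F statistic. TPM values were computed from the deposited counts. Single sums and ratios were tested by exact permutation with SciPy 1.17.1. Within each group the libraries were further apart than counting error (chi-square per degree of freedom 12.5 in the knockout and 8.04 in WT).

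Members and gene lists were chosen with earlier results of these data known. Named genes were those with an unadjusted p below 0.05, the 5 highest and 5 lowest fold changes, the 3 highest and 3 lowest levels, the Mrps18 genes, members that failed the filter, the 5 other subunits and the 2 smallest p in each pathway list; others were named after their values were seen. Alternatives were RLE scaling, libraries without mitochondrial and ribosomal RNA, no filter and a stricter one, DESeq2 1.42.0, a replicate block, leaving out each library, and transcript length. Protein sequences were not used here.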

Additional observations from a re-analysis of the deposited data

How the results depend on the processing

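No member was called under any of the 10 alternative fits, in which the lowest adjusted p of a member was 0.0883 (Mrpl46, without WT replicate 2). Over those fits 216 to 476 genes of all tested were called, the most without a filter on low counts (265 as reported). The labels do not say that same-numbered libraries are paired. The correlation of same-numbered deviations was 0.039, which cannot settle whether a pairing exists. With the replicate block 346 genes and 0 members were called. Leaving out a library in turn gave 2 to 6 members higher and 0 to 1 lower at an unadjusted p below 0.05. The median log2 fold change of members was 0.0192 to 0.0777 in those runs, that of the large subunit 0.0248 to 0.112 (0.0915 with no filter) and that of the small subunit -0.0541 to 0.0598 (-0.04 as reported). The summed level of members, a log2 ratio of 0.058, was 0.095 as a share of counts without mitochondrial-genome genes, rRNA and Rn7sk and 0.050 with RLE size factors. The median level was 43.1 TPM with merged exons and 40.5 TPM with the longest transcript.

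Of 346 values for 35 of the named genes, 334 kept their direction and 12 reversed, all within runs that left out a library. The sign of the 8 genes with a reversal is not settled. Other genes named here, such as Mrpl2, Mrpl12, Mrpl42, Mrps9 and Lars2, were not covered. Over the runs without 1 library each, log2 fold changes ran from -0.504 to 0.0325 for Mrps24, -0.137 to 0.0139 for Mrps28, -0.163 to 0.155 for Mrpl33, -0.0202 to 0.162 for Ptcd3, -0.0482 to 0.148 for Chchd1, -0.0700 to 0.114 for Aurkaip1, -0.245 to 0.0159 for mt-Rnr1 and -0.166 to 0.0580 for mt-Rnr2. A further 15 named genes kept their sign but moved by over 1.5 times in at least 1 such run. Beside Mrpl46, Mrpl52, Mrpl58 and Mrps10, these were Mrps18b (0.17 to 0.38), Mrps35 (0.08 to 0.56), Mrps21 (-0.16 to -0.04), Mrpl54 (-0.05 to -0.00012), Dap3 (0.01 to 0.22), Malsu1 (-0.49 to -0.17), Mpv17l2 (0.22 to 0.50), Slirp (0.08 to 0.23), Vars2 (0.14 to 0.49), Polrmt (-0.40 to -0.14) and Gabpa (-0.25 to -0.07). The causes were not tested. With 2 libraries a group and a median interval half-width of 0.345 (log2), small changes in a single member were not detectable here.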
